A study of Sus scrofa with 12 samples.

Results

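Transcripts of 10 genes of the TGF-β family were followed through all 12 libraries of the series, 6 ligands (BMP2, BMP4, BMP7, INHBA, TGFB1 and TGFB2) and 4 secreted antagonists (NOG, GREM1, CHRD and FST). The genes were taken by symbol from the 24358 genes listed in each of the expression tables, and each symbol was found on 1 identifier. The libraries came from pig induced pluripotent stem cells (PC-iPS), which the study derived from pericytes, the mural cells of small vessels. WT PC-iPS and NANOG tdTomato knock-in positive PC-iPS were each sequenced as 3 libraries, and so were cells labelled Activin A and cells labelled SB431542, which the study describes as knock-in positive cells. Per the study's methods, the knock-in cells were made with CRISPR/Cas9 and a donor carrying FLAG, P2A and tdTomato sequence, whose target occurs in the NANOG loci of both chromosomes 1 and 5. They were selected with puromycin and sorted for tdTomato, and each of the 3 lines was a mixed culture and not a clone. WT and knock-in cells were kept in LCDMV (LIF, CHIR99021, dimethindene maleate, minocycline hydrochloride and vitamin C), whereas the treated cells were grown in the same medium without LIF. The dose and duration used for the sequenced cultures are not given in the sources used here. No source says that the WT libraries came from separate cultures, so the p-values measure the spread between these libraries, which may be technical.

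Ligands of this family are secreted dimers that bind pairs of type I and type II receptor kinases. BMPs signal mainly through SMAD1, SMAD5 and SMAD9, whereas Activins, Nodal and TGF-βs signal through SMAD2 and SMAD3. Noggin (NOG), Gremlin (GREM1) and Chordin (CHRD) bind BMPs outside the cell and keep them from their receptors, and Follistatin (FST) binds Activins with high affinity. INHBA encodes the βA chain, of which Activin A is the dimer, so the gene product and the added cytokine are the same protein. SB431542 blocks the kinases of the Activin, Nodal and TGF-β type I receptors and leaves the BMP receptors active. In pluripotent cells of primates, Activin signalling maintains the undifferentiated state and BMP4 promotes differentiation.

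The 12 libraries summed to between 364241 and 390320 FPKM (fragment numbers divided by the length of the gene and by the mapped fragments of the library), with 15339 to 15827 genes above 0. Read numbers cannot be taken from FPKM. Relative depth, estimated from the commonest ratio of low values and set to 1 for knock-in library 1, lay between 0.564 and 0.635 in WT and between 0.730 and 1 in the other groups, so low genes were measured less finely in WT. Mitochondrial genes took up 13.9% to 16.4% of the summed FPKM in WT and 9.43% to 11.5% elsewhere. Of the pluripotency markers, SOX2 was at 39.1 to 71.5 FPKM and SALL4 at 10.1 to 18.3 FPKM in every library, DPPA5 did not exceed 0.126 FPKM and POU5F1 was not found under that symbol. Of the 8 mesendoderm markers only GATA6 reached 1 FPKM in all libraries of a group, and the 5 neural markers summed to between 220 and 345 FPKM. Lines 1, 2 and 3 held NANOG, the targeted gene, at 52.0, 101 and 70.4 FPKM, and the WT libraries at 9.71, 16.4 and 27.6 FPKM. The tests were made on log2(FPKM + 1) with limma, within a table and never across the tables. Calls needed both a log2 fold change of 1 or more in size and an adjusted p, by the Benjamini-Hochberg method over all genes tested, no higher than 0.05. All 10 genes passed the filter of 0.1 FPKM in 3 of the 6 libraries of a table.

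FST was by far the most abundant of the 10 genes. Its level ran from 25.6 to 130 FPKM, and it made up 37.1% to 86.0% of their summed FPKM in a library. NOG followed with a median of 6.38 FPKM (1.47 to 18.4), then TGFB2 with 2.53 FPKM (1.06 to 6.02) and BMP2 with 2.02 FPKM (0.479 to 6.82). BMP4 (1.07 to 3.05 FPKM) and CHRD (1.20 to 4.48 FPKM) stayed above 1 FPKM in all 12 libraries. BMP7 ran from 0.0872 to 26.1 FPKM, and GREM1 ran from a listed 0 to 4.97 FPKM. INHBA (0.0984 to 0.847 FPKM) and TGFB1 (0.238 to 0.650 FPKM) remained under 1 FPKM in every library. FPKM is scaled to gene length, so these levels can be set against each other. The ratio of FST to INHBA ran from 68.2 to 678 over the libraries.

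**Figure D1:**
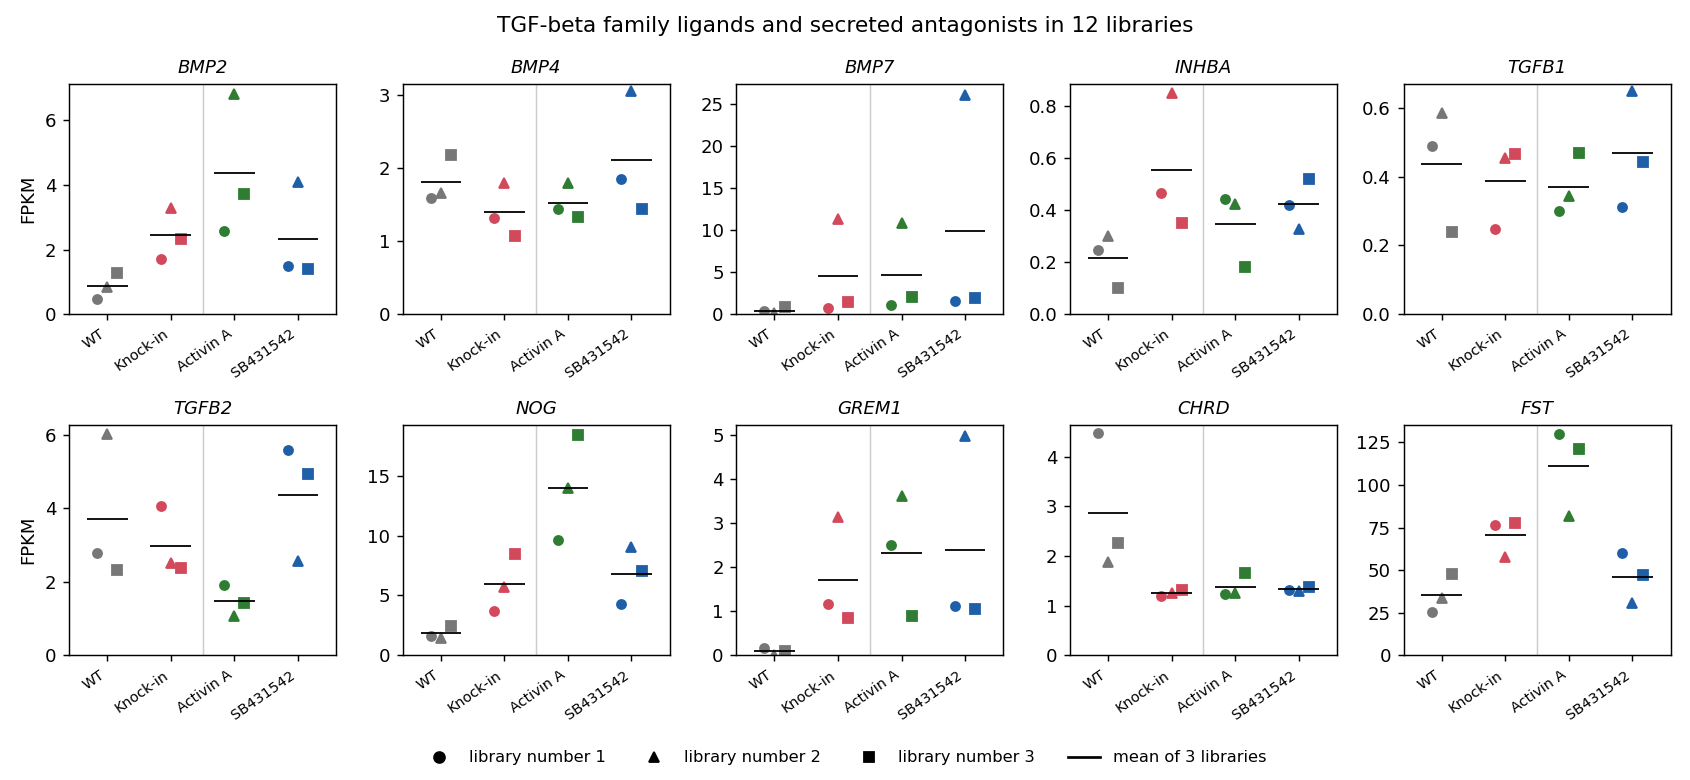
FPKM of each gene in the 12 libraries, by group; symbols give the library number, horizontal bars the mean of 3 libraries, and the grey line parts the separate tables. FST lies at 25.6 to 130 FPKM, and BMP7 stands at 10.8 to 26.1 FPKM in the knock-in, Activin A and SB431542 libraries numbered 2 and at no more than 2.01 FPKM elsewhere.

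The first comparison asked how knock-in positive cells differed from WT PC-iPS. The genes called were the BMP antagonists NOG and GREM1, which rose, whereas CHRD, the other BMP antagonist, lay lower and was not called. No ligand passed both thresholds, and FST passed that on p and just missed that on fold change. The calls were 2 higher and 0 lower of 10, where 1.61% of all 14014 genes tested were called higher and 0.706% lower. Without GREM1, which would not have passed the filter on low values from the WT libraries alone, NOG was the only call. Library groups did not overlap for 6 of the 10 genes. BMP2, INHBA, NOG, GREM1 and FST lay higher in every knock-in library than in any WT library (5 of 10, against 19.0% of all genes tested) and CHRD lay lower (1 of 10, against 16.7%). The median log2 fold change of the 10 genes was 0.61, and that of all genes tested was -0.001.

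NOG (ENSSSCG00000036437, chromosome 12 of Sscrofa11.1, 32891321 to 32892206) encodes Noggin. Lines 1, 2 and 3 held NOG at 3.67, 5.69 and 8.43 FPKM, and the WT libraries at 1.59, 1.47 and 2.45 FPKM. The lowest line was above the highest WT library, and the mean was 3.23 times that of WT. On the log2(FPKM + 1) scale NOG rose by 1.25 (standard error 0.27, limma adjusted p = 0.039). GREM1 (ENSSSCG00000033657, chromosome 1, 136617041 to 136629293) encodes Gremlin 1. It was at 1.16, 3.14 and 0.841 FPKM in the lines, whereas WT was at 0.163, a listed 0 and 0.109 FPKM. Transcripts of GREM1 were thus close to the lower limit in all WT libraries, which were also the shallowest, and line 2 stood highest. GREM1 rose by 1.23 (standard error 0.28, limma adjusted p = 0.044), and it would not have passed the filter on low values from the WT libraries alone. Among the 6 fits with 1 library removed, NOG was called without line 1 or WT library 3 and GREM1 without line 3. Without line 2 neither was called, since NOG had a limma adjusted p of 0.117 and GREM1 a log2 fold change of 0.874. Without WT library 1 the limma adjusted p of both was 0.104, and without WT library 2 it was 0.0953 for NOG and 0.105 for GREM1. NOG had 0.0681 without line 3, and GREM1 had 0.104 without line 1 and 0.0696 without WT library 3. With no filter on low values neither was called (limma adjusted p = 0.159 for NOG and 0.182 for GREM1). GREM1 was also not called without the variance trend (limma adjusted p = 0.0507) or with the replicate number as a block (0.0764).

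FST (ENSSSCG00000016892, chromosome 16, 32806341 to 32811382) was at 76.5, 57.8 and 77.5 FPKM in the lines and 25.6, 33.6 and 47.8 FPKM in WT. The groups were separate, at 70.6 ± 11.1 FPKM (SD, n = 3) against 35.7 ± 11.3 FPKM (SD, n = 3). FST had a limma adjusted p of 0.043, but its log2 difference of 0.998, with a standard error of 0.23, lay just under the threshold of 1. FST was called when WT library 3 was left out (log2 fold change 1.227, limma adjusted p = 0.018) after rescaling to TPM (1.041, 0.0425) or with a pseudocount of 0.1 (1.017, 0.0407), and its adjusted p lay between 0.018 and 0.17 over the alternatives. CHRD (ENSSSCG00000025270, chromosome 13, 122266632 to 122277513), which encodes Chordin, was the antagonist with the opposite sign. It was at 1.20, 1.26 and 1.32 FPKM in the lines and at 4.48, 1.89 and 2.26 FPKM in WT. All 3 lines lay below all 3 WT libraries, of which library 1 stood far above the rest. The log2 fold change was -0.72 (95% interval -1.27 to -0.16, limma adjusted p = 0.10), so CHRD was not called.

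Among the BMP ligands, BMP2 (ENSSSCG00000039442, chromosome 17, 15750487 to 15762982) was at 1.72, 3.28 and 2.33 FPKM in the lines and at 0.479, 0.841 and 1.26 FPKM in WT. The groups did not overlap, yet the log2 fold change of 0.88 (95% interval 0.37 to 1.40, limma adjusted p = 0.054) missed both thresholds. BMP2 was called once WT library 3 was left out (1.036, limma adjusted p = 0.0416). BMP4 (ENSSSCG00000005045, chromosome 1, 183415989 to 183422888) was at 1.31, 1.79 and 1.07 FPKM in the lines and 1.59, 1.65 and 2.17 FPKM in WT, with overlapping groups and a log2 fold change of -0.23 (95% interval -0.61 to 0.14). BMP7 (ENSSSCG00000007501, chromosome 17, 57567770 to 57676516) was at 0.766, 11.3 and 1.49 FPKM against 0.348, 0.0872 and 0.820 FPKM. Lines 2 and 3 lay above every WT library and line 1 did not, and the interval of the log2 fold change ran from -0.09 to 2.98.

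None of the Activin and TGF-β ligands was called. INHBA (ENSSSCG00000035077) was at 0.463, 0.847 and 0.349 FPKM in the lines and 0.246, 0.299 and 0.0984 FPKM in WT, separate groups at low level (log2 fold change 0.35, 95% interval 0.02 to 0.67, limma adjusted p = 0.16). TGFB2 (ENSSSCG00000010816, chromosome 10, 8306136 to 8435307) was at 4.07, 2.50 and 2.38 FPKM against 2.79, 6.02 and 2.31 FPKM. TGFB1 (ENSSSCG00000003017, chromosome 6, 49332169 to 49348642) was at 0.248, 0.453 and 0.465 FPKM against 0.490, 0.585 and 0.238 FPKM. Both had overlapping groups, and the intervals of their log2 fold changes ran from -0.90 to 0.53 and from -0.34 to 0.25. With 3 libraries in each group, an exact permutation test (two-sided) of a single gene cannot go below p = 0.1, which each of the 6 genes with separate groups reached.

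**Figure D2:**
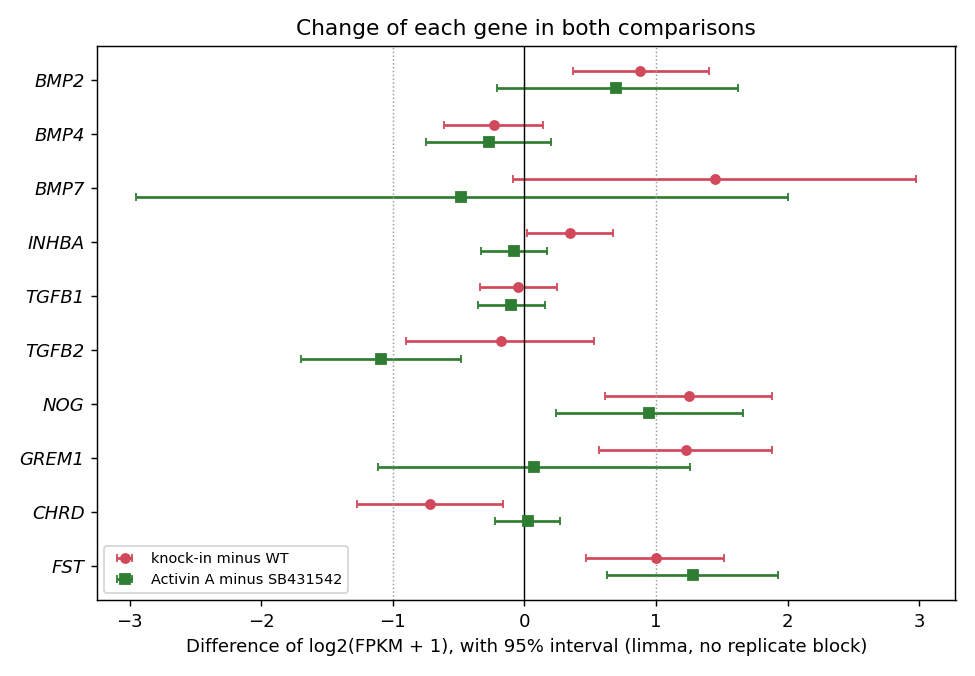
Difference of log2(FPKM + 1) for each gene with its 95% interval from limma, for knock-in minus WT (circles) and Activin A minus SB431542 (squares); dotted lines mark the threshold of 1. NOG (1.25) and GREM1 (1.23) were called in the first comparison, and the intervals of FST, NOG and TGFB2 exclude 0 in the second.

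Marker levels moved with the knock-in. Per the study's methods, feeder cells were taken out before RNA was extracted. The 10 markers of fibroblasts, feeder cells and mural cells, all found, summed to 354 to 499 FPKM in the lines and 25.9 to 37.9 FPKM in WT, mostly through TAGLN (299 to 457 FPKM in the lines). Of the 9 tested, limma called 3 higher (PDGFRB, ACTA2 and TAGLN) and 0 lower, against 1.61% and 0.706% of all genes tested. In every line 5 lay higher than in any WT library, against 19.0% of all genes. COL1A2 (9.02 to 12.7 FPKM against 3.56 to 7.34 FPKM) and THY1 were among them. COL1A1 lay lower (0.345 to 0.782 FPKM against 0.838 to 1.46 FPKM), COL3A1 reached 23.2 FPKM in line 3 with overlapping groups, and LUM was at most 0.102 FPKM. The 7 markers of trophectoderm and simple epithelium summed to 113, 492 and 55.2 FPKM in lines 1, 2 and 3 and to 7.35 to 13 FPKM in WT, with CDX2 at 0 throughout. Of the 6 tested, limma called KRT8 higher (log2 fold change 4.13, adjusted p = 0.025), against the same 1.61% of all genes. In every line 4 lay higher than in any WT library, against the same 19.0%. The 5 pluripotency markers found summed to 260 to 466 FPKM in the lines and at most 129 FPKM in WT, with LIN28A and NANOG called higher. Of the 5 neural markers, limma called PAX6 lower (0.858, 4.12 and 3.84 FPKM in the lines, 14.1, 26.8 and 8.96 FPKM in WT, adjusted p = 0.040), whereas NES lay higher in every line (136, 148 and 125 FPKM against 65.8, 86.3 and 82.2 FPKM) but missed the threshold on fold change (0.80, limma adjusted p = 0.019). The mesendoderm marker GATA6 was at 18.8, 12.5 and 15.7 FPKM in the lines and 8.98, 6.65 and 6.32 FPKM in WT, separate groups whose log2 difference of 0.999 (limma adjusted p = 0.029) missed the threshold of 1. The part of these markers in the levels of NOG and GREM1 was not tested. In such bulk libraries, fewer cells of a type and less RNA per cell cannot be told apart.

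The second comparison set cells treated with Activin A against cells treated with SB431542. FST and NOG were higher and TGFB2 lower in every Activin A library than in any SB431542 library, and the same held within each library number. Without the number in the fit, limma called 0 of the 10 genes, with 3 at an unadjusted p under 0.05, in a comparison that called 0.0571% of 13999 genes higher and 0.0357% lower. The share of all genes under that unadjusted p was not taken, here or for the like counts below. Such counts thus cannot be set against a background. The library numbers pair these samples: deviations of same-numbered libraries from their group means correlated at 0.400 to 0.587 across genes, and those of other pairs at -0.499 to -0.146. Deviations from a group mean add up to 0, so the negative values follow in part from the centring. With the replicate number as a block, FST was called higher and TGFB2 lower, against 0.521% of genes called higher and 0.186% called lower. Separate groups were found for 2 genes that lay higher (9.19% of all genes tested) and 1 that lay lower (10.8%). The fibroblast, feeder and mural markers summed to 357 to 449 FPKM with Activin A and 332 to 452 FPKM with SB431542, mostly TAGLN. Of the 9 tested, limma called ACTA2 lower with Activin A (7.52 to 9.28 FPKM against 18.7 to 20.6 FPKM, adjusted p = 0.035), and with the block also COL1A2 (11.2 to 21.3 FPKM against 3.24 to 4.77 FPKM, adjusted p = 0.024) and COL3A1 (6.57 to 42.9 FPKM against 0.0156 to 2.73 FPKM, adjusted p = 0.012) higher. The epithelial markers summed to 127, 423 and 48.2 FPKM in Activin A libraries 1, 2 and 3, below the SB431542 libraries of the same numbers (217, 929 and 102 FPKM). Most of that sum was KRT8, called lower with Activin A under the block (limma adjusted p = 0.015), whereas TFAP2C was called higher under it (6.93, 17.8 and 4.21 FPKM against 1.27, 6.36 and 1.01 FPKM, limma adjusted p = 0.019). Of the pluripotency markers, LIN28A was called lower with Activin A under the block (log2 fold change -1.55, limma adjusted p = 0.015) and NANOG higher. The part of these markers in the results for FST and TGFB2 was not tested.

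FST was at 130, 81.8 and 121 FPKM in Activin A libraries 1, 2 and 3 and at 59.8, 30.7 and 47.1 FPKM in the SB431542 libraries of the same numbers. Number 2 was lowest in both groups, and the ratio within a number was 2.18, 2.66 and 2.58. The log2 fold change was 1.28 (95% interval 0.63 to 1.93, limma adjusted p = 0.16), and with the block the adjusted p was 0.012. When 1 number was left out of the blocked fit, FST was called without number 2 (limma adjusted p = 0.0385) and without number 3 (0.0362) and not without number 1 (0.0621).

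TGFB2 was at 1.91, 1.06 and 1.43 FPKM with Activin A and at 5.58, 2.57 and 4.93 FPKM with SB431542. The SB431542 mean was 2.97 times that with Activin A. The log2 fold change was -1.09 (95% interval -1.70 to -0.48), with a limma adjusted p of 0.18, or 0.032 with the block. It was not called once any number was left out of the blocked fit, where the limma adjusted p was 0.155, 0.0507 and 0.0772 without numbers 1, 2 and 3. NOG was at 9.63, 14.0 and 18.4 FPKM against 4.29, 9.04 and 7.07 FPKM, and within a number the Activin A library was 2.24, 1.55 and 2.60 times higher. Its log2 fold change of 0.95 lay under the threshold, with a limma adjusted p of 0.28, or 0.048 with the block. NOG was thus not called, since the size of its difference missed 1.

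BMP2 was at 2.57, 6.82 and 3.73 FPKM with Activin A and 1.49, 4.08 and 1.41 FPKM with SB431542. The groups overlapped because number 2 was high in both, although the ratio within a number was 1.72, 1.67 and 2.64. BMP2 was not called with or without the block (limma adjusted p = 0.058 and 0.49). BMP7 was at 1.13, 10.8 and 2.01 FPKM against 1.57, 26.1 and 1.93 FPKM, a difference of either sign depending on the number. BMP4 was at 1.44, 1.79 and 1.32 FPKM against 1.84, 3.05 and 1.43 FPKM, lower with Activin A within each number but with overlapping groups (log2 fold change -0.27, 95% interval -0.75 to 0.20).

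The remaining genes showed no separation of the treatments. GREM1 was at 2.49, 3.6 and 0.891 FPKM with Activin A and 1.12, 4.97 and 1.06 FPKM with SB431542, with a log2 difference of 0.07 and a wide interval (-1.11 to 1.26). CHRD was at 1.23, 1.25 and 1.65 FPKM against 1.31, 1.3 and 1.38 FPKM, for which the interval was narrow (-0.22 to 0.27). INHBA, the gene of the added cytokine, was at 0.441, 0.421 and 0.179 FPKM against 0.417, 0.327 and 0.519 FPKM (interval -0.33 to 0.17). TGFB1 was at 0.301, 0.344 and 0.468 FPKM against 0.313, 0.650 and 0.444 FPKM (interval -0.35 to 0.16).

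**Figure D3:**
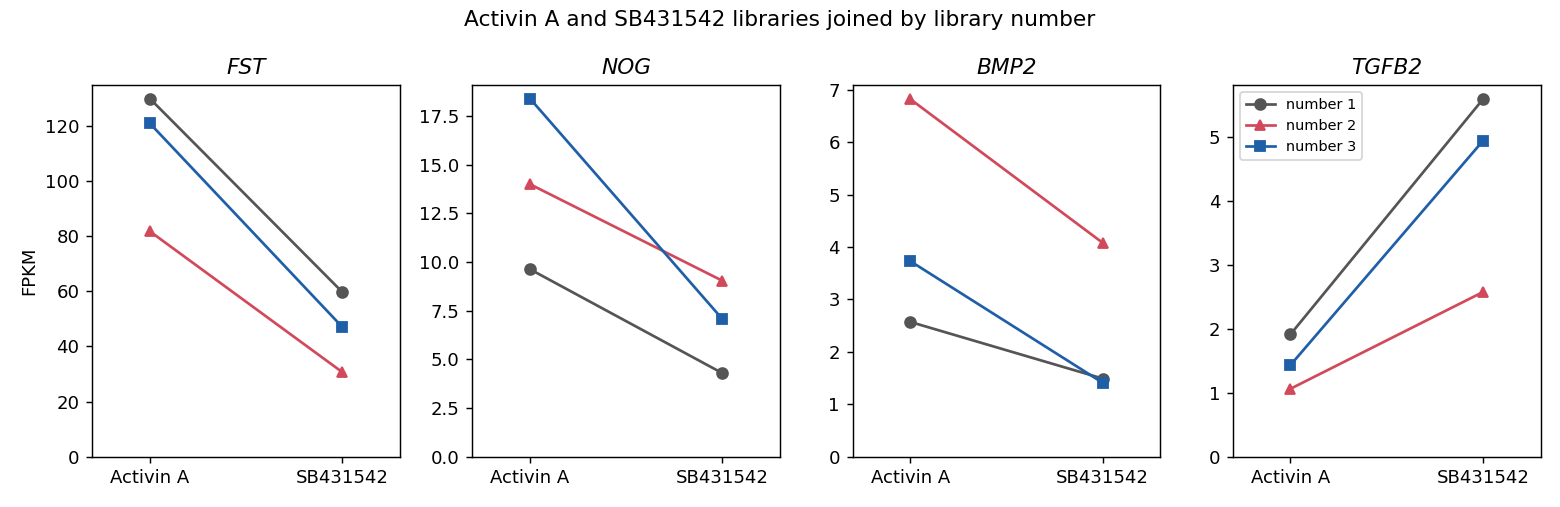
FPKM of FST, NOG, BMP2 and TGFB2 in Activin A and SB431542 libraries, joined by library number. Within each of the 3 numbers, FST, NOG and BMP2 are lower and TGFB2 is higher with SB431542, with FST at 81.8 to 130 FPKM against 30.7 to 59.8 FPKM.

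Levels across the 4 groups are given as a description, since the tables are separate and the treated cells lacked LIF. NOG was highest with Activin A (14.0 ± 4.38 FPKM, SD, n = 3). SB431542 (6.80 ± 2.39 FPKM) and untreated knock-in cells (5.93 ± 2.39 FPKM) followed with overlapping ranges, and WT was lowest (1.84 ± 0.531 FPKM). For FST, Activin A (111 ± 25.8 FPKM) lay clear of untreated knock-in cells (70.6 ± 11.1 FPKM), which met the range of SB431542 (45.9 ± 14.6 FPKM), which in turn overlapped WT (35.7 ± 11.3 FPKM). For TGFB2, SB431542 (4.36 ± 1.58 FPKM), WT (3.70 ± 2.02 FPKM) and untreated knock-in cells (2.98 ± 0.943 FPKM) overlapped in that order, and Activin A (1.47 ± 0.429 FPKM) was below all of them. GREM1 and BMP2 overlapped among the 3 groups of knock-in cells and lay below them in WT. CHRD was the reverse, at 2.87 ± 1.40 FPKM in WT and between 1.20 and 1.65 FPKM in the 9 libraries of knock-in cells. The groups of BMP4, BMP7, INHBA and TGFB1 overlapped at each step of their order.

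Of the 6 ligands, BMP7 had the highest ratio of number 2 to the mean of the other numbers, at 10.1, 6.89 and 14.9 in untreated, Activin A and SB431542 cells. In untreated knock-in cells, Activin A and SB431542 it stood at 11.3, 10.8 and 26.1 FPKM in the libraries numbered 2, and at 0.766 to 2.01 FPKM in the 6 libraries numbered 1 and 3. WT library 2 was the lowest of all 12, at 0.0872 FPKM. GDF7, a BMP-type ligand outside the 10 genes, was likewise highest in the libraries numbered 2 (2.87, 2.19 and 5.61 FPKM, against 0.412 to 0.841 FPKM in numbers 1 and 3). The labels do not say that the number of a treated library is that of the knock-in line. In the expression data, untreated and treated libraries of the same number deviated together, at 0.489 to 0.659 across genes, and those of other numbers at -0.486 to -0.078. Here too the negative values follow in part from centring on group means. The number was tested in the treated libraries alone, with treatment in the fit, a comparison chosen with the pattern of BMP7 already known. By that test BMP7 was called higher in number 2 than in numbers 1 and 3 (log2 difference 2.76, standard error 0.28, limma adjusted p = 0.047), where 0.129% of 13999 genes were called higher and 0.05% lower. The call was not kept in any of the 6 fits that left out 1 library, in which the limma adjusted p lay between 0.061 and 0.48 and the log2 difference was never under 2.22. The 2 libraries numbered 2 may come from 1 line, and the p-value measures the spread between treatments within numbers and that between numbers 1 and 3. It is thus no independent support, either for the pattern or for a difference between lines. By a rule set after the values of BMP7 had been seen, 3 genes of 14633, or 0.0205%, were at 1 FPKM or more in all these libraries numbered 2 and at least 5 times above every other library of knock-in cells: BMP7, LMX1B (9.36 to 18.7 FPKM against 0.697 to 1.78 FPKM) and OC90 (2.10 to 2.85 FPKM against 0.0294 to 0.332 FPKM). BMP7 passed that rule narrowly, with 10.8 FPKM in its lowest library numbered 2 and 2.01 FPKM in the highest of the others.

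Other ligands and antagonists also ranked by number, without a call. BMP2, BMP4 and GREM1 were highest in number 2 in each of the 3 groups of knock-in cells, as were 10.3% of all genes, and FST was lowest in each, as were 14.5%. For BMP2 the library numbered 2 was 1.63, 2.16 and 2.81 times the mean of the others in untreated, Activin A and SB431542 cells, and for GREM1 3.14, 2.13 and 4.54 times. FST stood at 0.750, 0.650 and 0.575 times the mean of the others. In the treated libraries, the log2 difference of number 2 was 0.99 for BMP2 (limma adjusted p = 0.077), 1.18 for GREM1 (0.18), 0.43 for BMP4 (0.27) and -0.69 for FST (0.089). Of the 7 epithelial markers, 5 were highest in number 2 in each group of knock-in cells as well (KRT8, KRT18, GATA3, TFAP2C and CDH1), with KRT8 at 428, 334 and 835 FPKM in untreated, Activin A and SB431542 cells against 35.3 to 200 FPKM in the other libraries of knock-in cells, whereas EPCAM (0.270 to 0.445 FPKM) was not and CDX2 was at 0. Of the 5 pluripotency markers found, 2 (NANOG and LIN28A) were also highest in number 2 in each of these groups. The same held for 3 of 10 fibroblast, feeder and mural markers, 1 of 5 neural markers and 0 of 8 mesendoderm markers. The part of these markers in the pattern of BMP7 was not tested.

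**Figure D4:**
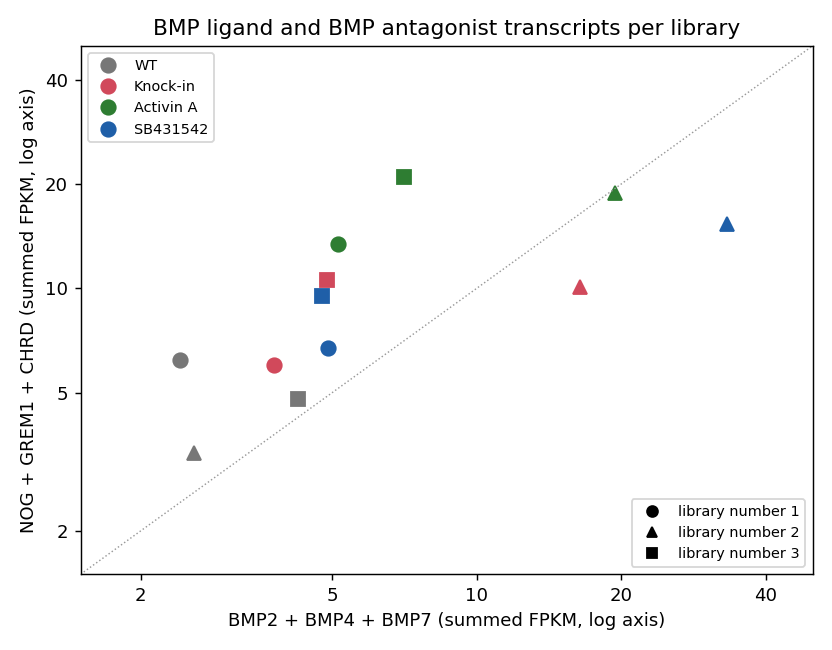
Summed FPKM of the BMP ligands BMP2, BMP4 and BMP7 (horizontal, log axis) against that of the BMP antagonists NOG, GREM1 and CHRD (vertical, log axis) in each library; the dotted line marks equal sums. The 3 libraries of knock-in cells numbered 2 lie below the line, at ratios of antagonists to ligands of 0.461 to 0.970, and all others lie above it.

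Summing the BMP ligands and the BMP antagonists of each library gave more ligand than antagonist only in the 3 libraries of knock-in cells numbered 2, where BMP7 stood highest. In these libraries the ligands BMP2, BMP4 and BMP7 summed to 16.4 (untreated), 19.4 (Activin A) and 33.2 FPKM (SB431542), of which BMP7 made up 69.0%, 55.7% and 78.5%. In the other 9 libraries the ligands summed to between 2.42 and 7.06 FPKM, with BMP7 at 3.38% to 40.4%. The antagonists NOG, GREM1 and CHRD exceeded the ligands in all of these 9, by 1.13 to 2.96 times, and in none of the 3 numbered 2, where the ratio was 0.615, 0.970 and 0.461. Without BMP7, antagonists exceeded the sum of BMP2 and BMP4 in all 12 libraries, by 1.99 (untreated), 2.19 (Activin A) and 2.15 times (SB431542) in number 2 of the knock-in cells and by 1.35 to 4.14 times elsewhere. WT library 2, at a ratio of 1.3 with BMP7 included, had more antagonist than ligand. These sums weigh transcripts and not proteins, and they leave out BMP ligands and antagonists outside the 10 genes. BMP5 alone exceeded the antagonist sum in WT library 3 (7.91 against 4.81 FPKM) and line 3 (11.2 against 10.6 FPKM). It also did so in SB431542 library 3 (13.6 against 9.52 FPKM). The order of ligand and antagonist thus holds only for the genes summed.

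Of the wider pathway, 23 of 27 other ligands were found in the tables. Of these, 10 were tested between knock-in and WT with 0 calls by limma and 3 at an unadjusted p under 0.05, and GDF11, a ligand that acts through SMAD2 and SMAD3, was the only one under an adjusted p of 0.05 (log2 fold change -0.87, limma adjusted p = 0.030). GDF11 was at 7.11, 6.51 and 10.1 FPKM in the lines and 14.5, 15.1 and 15.7 FPKM in WT. NODAL did not exceed 0.121 FPKM in any library, and GDF3 was listed at 0 in all 12. Between the treatments, where 0.0571% of all genes tested were called higher, 12 of these ligands were tested. LEFTY2, a secreted inhibitor of Nodal, met both thresholds. It was at 1.37, 0.783 and 1.20 FPKM with Activin A and listed at 0 in all 3 SB431542 libraries (log2 fold change 1.07, limma adjusted p = 0.042), so it passed the filter on low values through the Activin A libraries alone. Without LEFTY2 and BMP6, which were under 0.1 FPKM in every SB431542 library, 10 were tested with 0 calls.

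Of 26 further secreted antagonists and modulators, 20 were tested in the first comparison, where 1.61% of all genes were called higher and 0.706% lower. Of the 20, 2 were called higher and 0 lower. They were the proteoglycan gene DCN (6.94, 15.2 and 10.4 FPKM in the lines, 2.15, 3.06 and 4.21 FPKM in WT, limma adjusted p = 0.031) and THBS1, whose product can activate latent TGF-β (47.9 to 93.1 FPKM against 3.39 to 4.57 FPKM, limma adjusted p = 0.0013). In the second comparison limma called 0 of 19, with 6 at an unadjusted p under 0.05. It called 1, SOST, higher with the block, under which 0.521% of all genes were called higher. SOST was at 0.0348, 0.554 and 0 FPKM with SB431542, and it would not have passed the filter on low values from those libraries alone. FSTL3, a relative of FST that also binds Activin, was at 2.69, 2.88 and 2.96 FPKM with Activin A and 1.14, 1.20 and 1.21 FPKM with SB431542. Its log2 fold change of 0.82 had a limma adjusted p of 0.042 but missed the threshold of 1. The median log2 fold change of this list was 0.18 in the first (0.11 without SOST, which was under 0.1 FPKM in every WT library) and 0.25 in the second comparison, against -0.001 and -0.004 for all genes tested.

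Most receptors through which the ligands act were expressed, and none was called without the block. Of 15 receptors and pseudoreceptors 12 were tested in each comparison, and limma called 0 in both, with 2 and 4 at an unadjusted p under 0.05. TGFBR1 was at 23.4 to 37.5 FPKM, ACVR2B at 13.4 to 22.3 FPKM and BMPR1A at 8.44 to 14.9 FPKM over the 12 libraries. ACVR1 (8.34 to 14.9 FPKM), ACVR1B (4.05 to 6.26 FPKM), BMPR2 (2.86 to 5.23 FPKM), BMPR1B (2.57 to 4.05 FPKM), ACVR2A (2.30 to 4.55 FPKM), TGFBR3 (1.77 to 4.93 FPKM) and TGFBR2 (1.53 to 3.01 FPKM) followed. BAMBI, a decoy receptor for the family, was at 21.9, 33.5 and 34.7 FPKM with Activin A and 8.49, 15.0 and 17.3 FPKM with SB431542 (log2 fold change 1.11, limma adjusted p = 0.20, or 0.016 with the block). In the first comparison 4 of 10 BMP targets were called higher, namely ID1, ID3, MSX2 and HEY1, against 1.61% of all genes tested. The 10 targets had a median log2 fold change of 0.67. MSX2 was under 0.1 FPKM in every WT library and was tested through the lines alone. Without it, 3 of 9 were called, with a median of 0.51. SMAD9 went the other way, at 0.892, 0.721 and 0.862 FPKM in the lines and 3.35, 2.00 and 1.75 FPKM in WT, and missed the threshold on fold change (-0.85, limma adjusted p = 0.040). ID1, the classic direct target of BMP signalling, was at 5.13, 10.5 and 4.86 FPKM in the lines and 1.87, 1.46 and 1.28 FPKM in WT (limma adjusted p = 0.023). It was at 18.0, 24.5 and 13.5 FPKM with Activin A and 4.31, 15.3 and 4.34 FPKM with SB431542. There the groups overlapped, although the Activin A library was higher within each number (log2 fold change 1.31, limma adjusted p = 0.32, or 0.062 with the block). The study places ID1 among the targets of SMAD2 and SMAD3. It reports ID1 as higher with Activin A than with SB431542, by RNA-seq and by RT-PCR. Of the Activin and TGF-β targets, 2 of the 8 tested were called higher in the lines (NANOG and CCN2), against the same 1.61%. NANOG drives the tdTomato on which the lines were sorted, so its level is no separate result. In the second comparison, where 0.0571% of all genes tested were called higher, 1 of the 10 BMP targets was called, SMAD7. This inhibitory SMAD gene stands in both lists. Of the 8 tested Activin and TGF-β targets, 3 were called higher (NANOG, SMAD7 and LEFTY2), with a median log2 fold change of 1.35. Without LEFTY2, 2 of 7 were called, with a median of 1.62. NANOG was at 109, 195 and 157 FPKM with Activin A and 11.8, 27.2 and 11.8 FPKM with SB431542. With the block, 3 of the BMP targets and 5 of the Activin and TGF-β targets were called, all higher, against 0.521% of all genes tested. SMAD7 is counted in both. The 5 include LEFTY2, which passed the filter on low values through the Activin A libraries alone, beside NANOG, SMAD7, PMEPA1 and CCN2. NANOG reads may be shared between its loci on chromosomes 1 and 5.

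For the 8 members that reached 1 FPKM in a library, thus not for INHBA or TGFB1, the genes whose log2(FPKM + 1) followed them most closely over the 12 libraries were found among 10770 candidates by Pearson's r, as a description. BMP7 was followed by CXCL2 (0.981) and ATP6V1C2 (0.980), both highest in SB431542 library 2. GREM1 was followed by KRT18 (0.982) and RBMS1 (0.974), and KRT18 belongs to the epithelial markers above. FST was followed by FBXL14 (0.977) and FKBP10 (0.934), NOG by ELMSAN1 (0.959) and SOCS1 (0.944), and BMP2 by TAX1BP3 (0.955) and EPHA7 (0.954). CHRD, high in WT library 1, was followed by GNB3 (0.966) and SETDB2 (0.965), TGFB2 by PRKRA (0.933) and PEG10 (0.916), and BMP4 by TDRP (0.919) and FLVCR2 (0.893). The 12 points share groups, lines and tables and are not independent.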

How the data were processed

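Alignment to Ssc11.1 used HISAT2 (version 2.0.4 in the submitters' processing notes) after trimming in Trim Galore, and the authors deposited FPKM per gene from StringTie (1.3.3) with the Ensembl annotation, in 2 tables of 24358 genes with 6 libraries each. Their read counts were not used here, so limma on FPKM stood in for a count test and absolute depth is unknown. FPKM was used as deposited. Symbols came from the tables and, where these had none, from a table of Ensembl names (18416 genes in all). Coordinates are those of RefSeq for Sscrofa11.1, matched by symbol, and none is given for INHBA.

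Genes with at least 0.1 FPKM in 3 of 6 libraries were kept, 1 was added before log2, and limma-trend (limma 3.58.1, R 4.3.3) gave moderated tests. The test without the block was checked on simulated data with independent libraries, which does not cover the pairing by number. The members, lists and tests were chosen with earlier results of these data known. Named genes were all 10 members, called genes of the pathway lists, receptors the members bind and the 2 genes most like each member that reached 1 FPKM. Cell type markers were named beside the results they bear on. The other genes (GDF3, GDF7, GDF11, NODAL, BMP5, BMP6, FSTL3, SOST, BAMBI, SMAD9, LMX1B and OC90) were chosen after their values were seen. Alternatives were a pseudocount of 0.1, other filters, TPM, median-ratio scaling, no trend, the replicate block and leaving out each library. The library number, given in the sample titles, paired Activin A with SB431542 libraries (same-number correlations 0.400, 0.587 and 0.535), not knock-in with WT. Figures were drawn with matplotlib 3.10.9.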

Additional observations from a re-analysis of the deposited data

How the results depend on the processing

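Between knock-in and WT, 324 genes were called, and 538 with a pseudocount of 0.1, 53 without a filter, 1012 by the adjusted p alone and between 145 and 446 without 1 library. Of the 10 genes 2 were called, but 0 without a filter, 1 with a filter of 1 FPKM (at which GREM1 was not tested), 1 without the variance trend and between 0 and 3 without 1 library. The replicate block left 1, NOG, among 232 genes. Of the targets and markers called, CCN2, KRT8 and PAX6 were not called with the block (limma adjusted p = 0.059, 0.059 and 0.053). Knock-in and WT libraries share only a number, with same-number correlations of -0.018 to 0.094. Between Activin A and SB431542, 13 genes were called, and 1 without a filter, 5 with a filter of 1 FPKM, 7 without the trend, 99 with the replicate block and between 0 and 5 without 1 library. The block raised the count of the 10 genes from 0 to 2, and it changed no other call among them. Leaving out a number from the blocked fit, which was added after the data were seen, gave 2, 66 and 87 genes without numbers 1, 2 and 3, and 0, 1 and 1 of the 10. For number 2 against 1 and 3, 1 of the 10 was called, but 0 with a pseudocount of 0.1, without a filter, after rescaling to TPM and without any 1 library. The cause of these changes was not tested. No called change of the 10 genes turned its sign. FPKM without read numbers gives no counting error, which matters for values under 1 FPKM, such as all those of INHBA and TGFB1.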

Other observations

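Some ligands and antagonists outside the 10 had patterns by line or treatment that are given as values, chosen after they had been seen. GDF7, a BMP-type ligand, was listed at 0, 0 and 0.120 FPKM in WT, whereas lines 1, 2 and 3 held it at 0.558, 2.87 and 0.763 FPKM, a log2 fold change of 1.08 that was not called (limma adjusted p = 0.079). It was highest in number 2 also with Activin A (0.471, 2.19 and 0.837 FPKM) and SB431542 (0.841, 5.61 and 0.412 FPKM). SOST, which encodes the secreted antagonist Sclerostin, was at 3.64, 8.35 and 1.5 FPKM with Activin A and 0.0348, 0.554 and 0 FPKM with SB431542 (log2 fold change 2.02, limma adjusted p = 0.17, or 0.034 with the block). From the SB431542 libraries alone, SOST would not have passed the filter on low values. BMP5 was lowest in number 1 in the 3 groups of knock-in cells, at 2.72, 4.22 and 1.86 FPKM in untreated, Activin A and SB431542 cells, against 9.27 to 13.6 FPKM in numbers 2 and 3. In WT it ran from 0.331 to 7.91 FPKM. BMP6 was at 0.613, 0.797 and 0.332 FPKM with Activin A and at most 0.0575 FPKM with SB431542 (limma adjusted p = 0.14, or 0.059 with the block).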
